A study of Arabidopsis thaliana with 9 samples.

Results

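SUC2:CO seedlings of Arabidopsis thaliana were compared with wild-type Col-0 seedlings across all genes with enough counts. Circadian clock, flowering and anthocyanin genes were excluded from the rankings over all genes. They remain in the totals of changed genes and in the counts of any family list that holds them. The SUC2:CO line carries an HA-tagged CONSTANS gene (CO) driven by the SUC2 (sucrose transporter) promoter in the co-10 mutant, per the labels, and Col-0 carries neither the transgene nor the mutation. Transgene and mutant background therefore cannot be told apart. A 35S:CO line, labelled as Col-0 background, in which a viral promoter that is active in most tissues drives CO, entered the model fit and is used below as a second reference for SUC2:CO. The SUC2:CO, 35S:CO and Col-0 groups had 3 samples each, so 6 of the 9 samples of the series carry the comparison. All were seedlings grown in soil at 22 °C under 16 h of light and 8 h of darkness, taken 7 days after germination at zeitgeber time 14. Each p-value sets a difference against the spread between samples within genotypes, with the 35S:CO samples included. The labels give neither the number of independent transgenic lines nor whether samples came from separate pools of plants. Whether that spread covers separate lines or pools is therefore not known.

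CO is a B-box transcription factor that is made in the companion cells of leaf phloem and promotes flowering in long days, mainly by activating FT there. The SUC2 promoter is active in the same companion cells, where the SUC2 protein loads sucrose into the sieve tubes. A line of this kind therefore restricts the transgene to a small set of cells, while the RNA measured here comes from seedling tissue in bulk. In such bulk samples, fewer cells of a type and less RNA per cell cannot be told apart.

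CO (AT5G15840, chr5:5170162-5173085 in RefSeq's TAIR10.1) had 48.6, 50.9 and 60.3 CPM in the SUC2:CO replicates, against 9.54, 10.1 and 7.97 CPM in the Col-0 replicates (CPM, counts scaled by library size). All SUC2:CO samples lay above all Col-0 samples (log2 fold change 2.53 ± 0.13, adjusted p = 5.2e-06, edgeR quasi-likelihood test). Reads of the transgene and of the mutant co-10 allele both count for this locus, and annotated loci overlap it. SUC2 itself (AT1G22710, chr1:8030587-8033156), whose promoter drives the transgene, had 77.2, 93.7 and 98.1 CPM in the SUC2:CO replicates, against 156, 208 and 157 CPM in the Col-0 replicates. It was lower in SUC2:CO without overlap (log2 fold change -0.95 ± 0.14, adjusted p = 0.000992).

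Each library held 25563118 to 26636174 counts. Col-0 replicate 1 stood apart from the other Col-0 samples for several of the gene groups below. Ribosomal protein genes summed to 59105, 47557 and 46815 CPM in Col-0 replicates 1 to 3 and the excluded anthocyanin genes to 1317, 421 and 577 CPM. The defence gene PCC1 had 3.56, 31.4 and 21.5 CPM. Replicate 1 was thus the highest of the Col-0 samples for ribosomal and anthocyanin genes and the lowest for PCC1, and values without it are given beside several of the results below.

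Of 19149 genes tested, 6176 changed at an adjusted p under 0.05 (32.3%). SUC2:CO was higher for 2962 of these (15.5%) and lower for 3214 (16.8%). The log2 fold change reached at least 1 in size for 1784 genes (9.32%), and its median over all tested genes was -0.02. Without SUC2:CO replicate 3 the count of changed genes was 3572, and without Col-0 replicate 1 it was 3954. Gene lists are read below against these background shares. All SUC2:CO samples lay above all Col-0 samples for 23.8% of tested genes and below them for 23.2%. The rules for naming genes took only called genes without such overlap. Lack of overlap in a gene named by them was therefore set by the choice and is no added support. Shares of lower genes were above the background in lists of the translation machinery, histones and plastid-encoded genes, and shares of higher genes in lists of immune receptors, cytochromes P450, glucosinolates, and starch and nutrient metabolism.

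**Figure D1:**
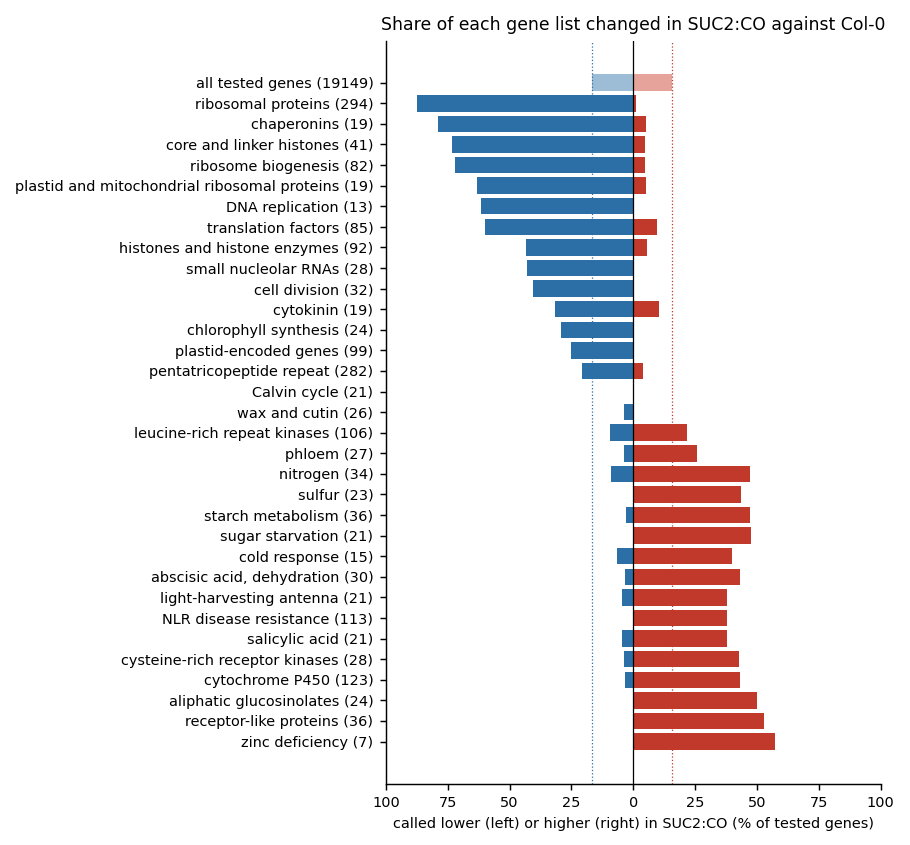
Percentage of the tested genes of selected lists that were lower (left, blue) or higher (right, red) in SUC2:CO than in Col-0 at an adjusted p under 0.05, with the number of tested genes in parentheses. Dotted lines mark the shares over all 19149 tested genes, 16.8% lower and 15.5% higher; of the lists shown, ribosomal protein genes reach farthest to the left, and zinc deficiency genes (57.1% of 7) and receptor-like proteins (52.8% of 36) farthest to the right.

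Ribosomal protein genes were lower in SUC2:CO almost throughout. Ribosomes translate mRNA into protein, and plants carry several expressed copies of the gene for most ribosomal proteins, which tend to vary together with growth. Of 294 tested genes with a product named as a ribosomal protein and not as a plastid or mitochondrial one, 257 fell and 3 rose. Their median log2 fold change was -1.18, against -0.02 for all tested genes. Product names do not always state the compartment, so some organellar proteins may be in this list. Among the 105 tested genes with a name specific to cytosolic ribosomes (a list made after values were seen), 90 fell, 3 rose and the median was -1.28.

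The summed level of the ribosomal protein list was 28323, 27568 and 25381 CPM in the SUC2:CO replicates, against 59105, 47557 and 46815 CPM in the Col-0 replicates. Every SUC2:CO library lay below every Col-0 library. Without Col-0 replicate 1, 234 members were lower and the median was -1.04. The 3 members that rose, named after their values were seen, were AT1G53560 and AT3G14595, annotated as L18ae family proteins, and AT3G01170, an L34e superfamily protein. Their log2 fold changes were 0.76 ± 0.18, 0.54 ± 0.17 and 0.36 ± 0.12, with adjusted p-values of 0.0111, 0.0321 and 0.0469. AT3G01170 was no longer called when SUC2:CO replicate 2, SUC2:CO replicate 3, Col-0 replicate 1 or Col-0 replicate 2 was left out (adjusted p from 0.101 to 0.156). AT3G14595 was no longer called without SUC2:CO replicate 1, 2 or 3 (adjusted p from 0.061 to 0.112).

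The bases before the transcription start are shown for genes of this machinery because motifs there recur in ribosomal protein promoters. Capitals mark site II elements (TGGGCC or TGGGCT) and the telo-box (AAACCCTA) on either strand, in the 250 bases before the annotated gene start, read from RefSeq's TAIR10.1 genome, 5′ to 3′ on the strand of the gene. AT3G16080, a zinc-binding ribosomal protein (chr3:5454512-5454761, plus strand), has site II matches only. AT5G60390, a GTP-binding elongation factor (chr5:24288346-24288595, plus strand), has both motifs. AT4G10450, an L6 family ribosomal protein (chr4:6464559-6464808, minus strand), and FIB2 (AT4G25630, chr4:13073840-13074089, plus strand) have neither in these windows.
AT3G16080: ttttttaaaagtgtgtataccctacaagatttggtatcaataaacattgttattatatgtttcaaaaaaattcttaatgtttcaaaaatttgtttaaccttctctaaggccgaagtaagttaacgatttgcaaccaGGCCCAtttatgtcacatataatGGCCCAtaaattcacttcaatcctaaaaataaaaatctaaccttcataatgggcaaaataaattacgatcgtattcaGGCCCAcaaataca
AT5G60390: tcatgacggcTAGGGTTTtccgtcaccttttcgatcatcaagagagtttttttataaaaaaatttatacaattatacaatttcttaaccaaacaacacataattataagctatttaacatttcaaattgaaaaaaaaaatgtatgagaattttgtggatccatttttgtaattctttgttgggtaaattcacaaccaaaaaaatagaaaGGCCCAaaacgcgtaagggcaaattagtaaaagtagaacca
AT4G10450: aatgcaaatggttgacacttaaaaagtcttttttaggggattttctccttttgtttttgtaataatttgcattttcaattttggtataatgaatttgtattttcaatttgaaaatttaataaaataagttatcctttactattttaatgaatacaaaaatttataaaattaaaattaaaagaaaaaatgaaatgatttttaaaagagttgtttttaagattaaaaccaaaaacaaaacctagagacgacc
AT4G25630: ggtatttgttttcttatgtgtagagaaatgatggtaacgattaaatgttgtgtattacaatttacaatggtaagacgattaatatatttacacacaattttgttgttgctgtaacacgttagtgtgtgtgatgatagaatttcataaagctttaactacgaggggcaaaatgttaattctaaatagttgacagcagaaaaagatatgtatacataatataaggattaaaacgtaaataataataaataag

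AT3G16080 had 35.6, 32.9 and 29.9 CPM in the SUC2:CO replicates, against 143, 99.7 and 109 CPM in the Col-0 replicates, a fall without overlap (log2 fold change -1.84 ± 0.18, adjusted p = 0.000276). The fall of AT4G10450, with no match to either motif, was as large: 15, 11.6 and 9.65 CPM in the SUC2:CO replicates, against 55.3, 39.2 and 35.8 CPM in the Col-0 replicates (log2 fold change -1.84 ± 0.23, adjusted p = 0.000522). Site II letters occurred in 58.2% of the 294 tested ribosomal protein promoters, against 23.2% of the promoters of all tested genes and 19.2% of all 27443 protein-coding genes. The telo-box occurred in 14.6% of the ribosomal protein promoters, against 3.68% of all tested genes and 4.49% of all protein-coding genes. Among lower genes outside ribosomal proteins and ribosome biogenesis 31.3% had site II letters, and among higher genes 16.2%. For the telo-box these shares were 5.73% and 1.62%. A match is a description of the letters and not evidence of binding.

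Large single falls among ribosomal protein genes included AT1G23410, a ubiquitin fusion of the S27a protein, at 1.51, 1.53 and 1.15 CPM in the SUC2:CO replicates, against 14.3, 4.24 and 9.67 CPM in the Col-0 replicates (log2 fold change -2.75 ± 0.46, adjusted p = 0.00182). AT2G40010, an L10 family protein, had 7.41, 6.38 and 5.17 CPM in the SUC2:CO replicates, against 37.9, 18.5 and 24.4 CPM in the Col-0 replicates (log2 fold change -2.09 ± 0.32, adjusted p = 0.00128). Neither overlapped between the groups, though Col-0 replicate 2 lay far below the other Col-0 samples for AT1G23410. The largest loss in CPM within this list was that of another L10 family protein, AT3G09200, at 285, 244 and 231 CPM in the SUC2:CO replicates, against 863, 559.8 and 628 CPM in the Col-0 replicates (log2 fold change -1.43 ± 0.20, adjusted p = 0.000799). Its annotation overlaps a neighbouring gene on the same strand, so its reads may be shared. RPSAb, a 40S protein, fell by 1.84 on the log2 scale and AT3G16780, an L19e family protein, by 1.75.

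Genes that build ribosomes fell with them. Ribosome biogenesis takes place mostly in the nucleolus, where ribosomal RNA is transcribed, chemically modified and assembled with proteins. Of 82 tested biogenesis genes, in a list made after values were seen, 59 fell and 4 rose (median log2 fold change -0.76), and without Col-0 replicate 1 45 were lower. FIB2, fibrillarin 2, a nucleolar protein that methylates ribosomal RNA, had 15.7, 10.9 and 8.38 CPM in the SUC2:CO replicates, against 111, 55.6 and 65.3 CPM in the Col-0 replicates. The groups were far apart (log2 fold change -2.73 ± 0.33, adjusted p = 0.000532), and without Col-0 replicate 1 its log2 fold change was -2.38. A small locus overlaps FIB2 on the same strand, so the split of reads is uncertain. NOP56 and the NOP56-like gene AT5G27120, which act with fibrillarin in box C/D particles, fell too (-1.78 ± 0.24 and -2.11 ± 0.27 on the log2 scale, adjusted p = 0.000691 and 0.000612).

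Of 28 tested loci annotated as small nucleolar RNAs or their associated proteins, 12 fell, in a list also made after values were seen. The count was 6 without SUC2:CO replicate 2 or Col-0 replicate 1, 5 without SUC2:CO replicate 3 and 7 without Col-0 replicate 3. SNOR77 had 0.945, 1.29 and 1.15 CPM in the SUC2:CO replicates, against 3.75, 3.11 and 3.83 CPM in the Col-0 replicates and so lay at low levels in both groups (log2 fold change -1.66 ± 0.31, adjusted p = 0.00313). Small structured RNAs are recovered unevenly by mRNA libraries, and the labels do not state how the RNA was selected.

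Translation factors shared the direction with smaller changes. Initiation and elongation factors bring mRNA, tRNA and ribosome together. Of 85 tested factors, a list made after values were seen, 51 fell and 8 rose (median -0.46), and without Col-0 replicate 1 40 were lower. AT5G60390 had 1346, 1231 and 1090.1 CPM in the SUC2:CO replicates, against 2711, 2166 and 2030.1 CPM in the Col-0 replicates (log2 fold change -0.91 ± 0.15, adjusted p = 0.00174). It was one of the largest losses in CPM, and near-identical copies of the gene elsewhere may share its reads. Against the majority, AT5G54940, a translation initiation factor of the SUI1 family, rose, with 182, 189 and 208 CPM in the SUC2:CO replicates, against 63.2, 101 and 123 CPM in the Col-0 replicates (log2 fold change 1.01 ± 0.25, adjusted p = 0.0115). 

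Chaperonins, barrel-shaped complexes that fold proteins (a list made after values were seen), fell in 15 of 19 tested members and rose in 1. CPN60A, the alpha subunit of the plastid chaperonin, had 492, 421 and 395 CPM in the SUC2:CO replicates, against 1004, 779 and 729.98 CPM in the Col-0 replicates (log2 fold change -0.94 ± 0.18, adjusted p = 0.00359). Of 19 tested genes named as plastid or mitochondrial ribosomal proteins, 12 fell and 1 rose, with a median of -0.45. MRPL11, of the mitochondrial ribosome, had 32.1, 33.7 and 31.5 CPM in the SUC2:CO replicates, against 60.2, 52.8 and 51.4 CPM in the Col-0 replicates (log2 fold change -0.76 ± 0.11, adjusted p = 0.00113). The pentatricopeptide repeat family, whose proteins process organellar RNA, was nearer the background, with 58 of 282 tested members lower, 11 higher and a median of -0.30. Its count of lower members was 22 without SUC2:CO replicate 2, SUC2:CO replicate 3 or Col-0 replicate 1.

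**Figure D2:**
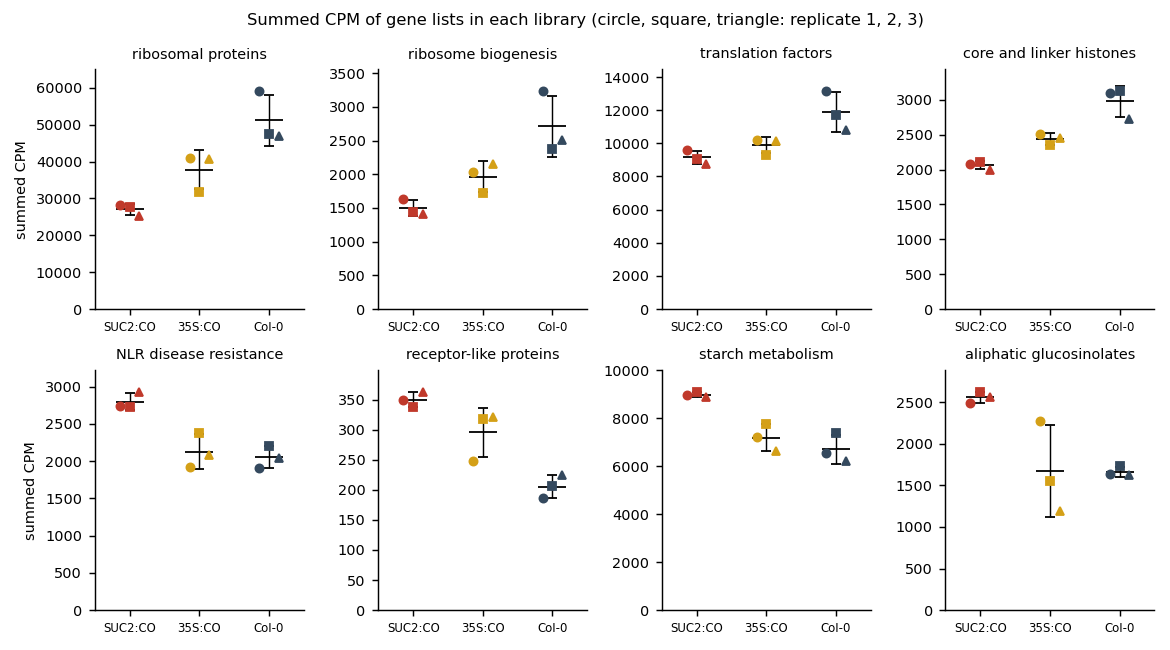
Summed CPM of 8 gene lists in each library, with circle, square and triangle for replicates 1, 2 and 3 and black bars for the mean ± SD of 3 samples. In SUC2:CO the ribosomal protein, biogenesis, translation factor and core and linker histone sums lie below all Col-0 samples, and the other 4 sums lie above them.

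Core histone genes and DNA replication genes were mostly lower in SUC2:CO. Core histones package DNA and are made in large amounts in S phase, although some variants are made at all times. Of 41 tested core and linker histone genes, a list made after values were seen, 30 fell and 2 rose (median -0.66). The wider list of products with histone in the name, which also takes in enzymes that act on histones, had 40 of 92 lower, 5 higher and a median of -0.34. HTB1, an H2B gene, had 43.4, 46.2 and 43.2 CPM in the SUC2:CO replicates, against 115, 77.9 and 81.3 CPM in the Col-0 replicates (log2 fold change -1.04 ± 0.18, adjusted p = 0.00211). HTA13, an H2A gene, had 16.1, 15.6 and 13.3 CPM in the SUC2:CO replicates, against 34.2, 27.4 and 30.2 CPM in the Col-0 replicates (log2 fold change -1.03 ± 0.16, adjusted p = 0.00127). The groups did not overlap for either gene.

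HDA3 and HDT4, plant-specific HD2-type histone deacetylases, were members of the wider list. HDA3 had 21.4, 14.9 and 14.5 CPM in the SUC2:CO replicates, against 93.6, 56.4 and 62.9 CPM in the Col-0 replicates (log2 fold change -2.07 ± 0.25, adjusted p = 0.000517). HDT4 had 10.4, 9.81 and 7.66 CPM in the SUC2:CO replicates, against 50.8, 31 and 35.1 CPM in the Col-0 replicates (log2 fold change -2.07 ± 0.20, adjusted p = 0.000263). Both were lower without overlap, and without Col-0 replicate 1 their log2 fold changes were -1.82 and -1.83.

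Of 13 tested DNA replication genes, 8 fell and none rose, a count that was 4 without SUC2:CO replicate 2, SUC2:CO replicate 3 or Col-0 replicate 1. PCNA1, a sliding clamp of DNA polymerase, had 6.09, 5.17 and 5.28 CPM in the SUC2:CO replicates, against 13.9, 10.3 and 9.43 CPM in the Col-0 replicates (log2 fold change -1.02 ± 0.18, adjusted p = 0.00216). RNR1, the large subunit of ribonucleotide reductase, which makes deoxynucleotides, had 66.9, 50.9 and 58.2 CPM in the SUC2:CO replicates, against 118, 96.9 and 92.8 CPM in the Col-0 replicates (log2 fold change -0.81 ± 0.13, adjusted p = 0.00139). Cyclins, cyclin-dependent kinases and other cell division genes were lower in value more often than they passed the test: 13 of 32 fell and the median was -0.99. That count rested on single libraries, being 5 without SUC2:CO replicate 1, 4 without SUC2:CO replicate 2 or Col-0 replicate 3, 2 without SUC2:CO replicate 3 or Col-0 replicate 1 and 27 without Col-0 replicate 2, and limma-voom called 6.

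The plastid-encoded genes that changed were all lower in SUC2:CO, and nuclear genes of the light-harvesting antenna rose more often than they fell. The plastid genome encodes core photosystem subunits, part of the plastid ribosome and a plastid RNA polymerase, whereas the antenna proteins that bind chlorophyll are encoded in the nucleus. Of 99 tested plastid loci, 25 fell and none rose (median -0.47), and without Col-0 replicate 1 31 fell. The locus ATCG01130 had 786, 665 and 649.7 CPM in the SUC2:CO replicates, against 1658, 1242 and 1655 CPM in the Col-0 replicates (log2 fold change -1.12 ± 0.16, adjusted p = 0.000909). ATCG00190 had 17.8, 15.6 and 13 CPM in the SUC2:CO replicates, against 36.7, 32.8 and 34 CPM in the Col-0 replicates (log2 fold change -1.16 ± 0.16, adjusted p = 0.000878). Neither overlapped between the groups, and the annotation used names these loci by identifier only. The RNA of plastid genes mostly lacks long poly(A) tails, and how the libraries selected RNA was not stated, so these levels depend on that step. CP29, a nuclear gene for a chloroplast RNA-binding protein, had 646, 619 and 580.1 CPM in the SUC2:CO replicates, against 1337, 1223 and 1007 CPM in the Col-0 replicates (log2 fold change -0.95 ± 0.15, adjusted p = 0.00135).

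Among 21 tested antenna genes, 8 rose and 1 fell (median 0.35). LHB1B2, a subunit of the main antenna of photosystem II, had 5143, 7266 and 8075 CPM in the SUC2:CO replicates, against 2129, 3020.1 and 2522 CPM in the Col-0 replicates (log2 fold change 1.42 ± 0.20, adjusted p = 0.000883). LHCB2.1 had 344, 581 and 488 CPM in the SUC2:CO replicates, against 169, 168 and 163 CPM in the Col-0 replicates (log2 fold change 1.50 ± 0.20, adjusted p = 0.000744). CAB2 was the member that fell, with 287, 468 and 291 CPM in the SUC2:CO replicates, against 1986, 1103 and 727 CPM in the Col-0 replicates (log2 fold change -1.87 ± 0.36, adjusted p = 0.00358), and its near-identical neighbours make the assignment of reads uncertain. Of 24 tested chlorophyll synthesis genes, 7 fell and none rose, a count that was 2 without SUC2:CO replicate 1 or Col-0 replicate 1, 4 without SUC2:CO replicate 2 and 3 without SUC2:CO replicate 3. FLU, a protein that holds back the first step of that pathway in the dark, had 82.8, 82.2 and 77.5 CPM in the SUC2:CO replicates, against 156, 123 and 124 CPM in the Col-0 replicates (log2 fold change -0.73 ± 0.12, adjusted p = 0.00195). HEME1, a uroporphyrinogen decarboxylase of the same pathway, fell as well (log2 fold change -0.64 ± 0.14, adjusted p = 0.00729).

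Of the 21 Calvin cycle genes, edgeR's quasi-likelihood test called 0 and 2 had an unadjusted p under 0.05. DESeq2 called 2 and limma-voom 0. Among 26 wax and cutin genes 1 was called, LACS1, an acyl-CoA synthetase (log2 fold change -0.43 ± 0.14, adjusted p = 0.0379). It was no longer called without SUC2:CO replicate 2, SUC2:CO replicate 3, Col-0 replicate 1 or Col-0 replicate 3 (adjusted p from 0.0581 to 0.144). Primary wall cellulose genes had 0 called of 9 by edgeR, DESeq2 and limma-voom alike, with 1 at an unadjusted p under 0.05 in edgeR.

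Several families of immune receptor genes rose more often than they fell in SUC2:CO. Plants detect microbes with receptors at the cell surface, such as receptor-like kinases and receptor-like proteins, and inside the cell with NLR proteins, and salicylic acid carries much of the response. Receptor-like proteins, a list made after values were seen, rose in 19 of 36 tested members and fell in none (median 0.78). NLR genes rose in 43 of 113 and fell in none (median 0.40). Cysteine-rich receptor kinases rose in 12 of 28 and fell in 1 (median 0.63). The NLR count was 28 without SUC2:CO replicate 2, 23 without SUC2:CO replicate 3 and 25 without Col-0 replicate 1, and it was 30 when libraries were scaled by their totals only. Leucine-rich repeat kinases, a larger family that holds receptors for development as well as defence, were nearer the background, with 23 of 106 higher, 10 lower and a median of 0.02, and the count of rises was 15 without SUC2:CO replicate 3. The count for cysteine-rich receptor kinases was 7 without SUC2:CO replicate 3. Without Col-0 replicate 1, 14 receptor-like proteins were higher.

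RLP34 had 37.1, 33.3 and 34 CPM in the SUC2:CO replicates, against 5.0, 7.6 and 14.3 CPM in the Col-0 replicates (log2 fold change 1.95 ± 0.36, adjusted p = 0.00319). SOBIR1, the kinase with which receptor-like proteins signal, had 48.8, 41.6 and 47.9 CPM in the SUC2:CO replicates, against 10.3, 21.3 and 25.5 CPM in the Col-0 replicates (log2 fold change 1.27 ± 0.29, adjusted p = 0.0083). For both, the SUC2:CO samples lay above the highest Col-0 sample, and Col-0 replicate 1 was the lowest. CRK18 had 55.8, 69.3 and 69.5 CPM in the SUC2:CO replicates, against 9.5, 20.3 and 17.1 CPM in the Col-0 replicates (log2 fold change 2.05 ± 0.26, adjusted p = 0.000583). CRK4 had 5.29, 5.29 and 7.16 CPM in the SUC2:CO replicates, against 0.0757, 0.208 and 0.73 CPM in the Col-0 replicates, all Col-0 values being under 1 CPM (log2 fold change 4.06 ± 0.54, adjusted p = 0.000667). Without Col-0 replicate 1 the log2 fold change was 1.66 for RLP34, 0.97 for SOBIR1, 1.80 for CRK18 and 3.59 for CRK4, all with an adjusted p under 0.05. CRK4 moved further without Col-0 replicate 3, to 5.36 (adjusted p = 0.000699).

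Among NLR genes, AT5G46260, a TIR-NBS-LRR protein, had 17.9, 15.8 and 20.3 CPM in the SUC2:CO replicates, against 4.2, 4.86 and 5.08 CPM in the Col-0 replicates (log2 fold change 1.93 ± 0.17, adjusted p = 0.000146). It was higher without overlap and the Col-0 samples were close together. RPS2, which detects a bacterial effector, had 6.88, 6.22 and 6.39 CPM in the SUC2:CO replicates, against 1.1, 1.74 and 3.55 CPM in the Col-0 replicates (log2 fold change 1.60 ± 0.41, adjusted p = 0.015). Its log2 fold change without Col-0 replicate 3, the highest Col-0 sample, was 2.19 (adjusted p = 0.00387). RPP8, a downy mildew resistance gene, had the higher level and the smaller change, 107, 104 and 112 CPM in the SUC2:CO replicates, against 67.5, 77.2 and 67.3 CPM in the Col-0 replicates (log2 fold change 0.61 ± 0.11, adjusted p = 0.00304).

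Salicylic acid genes rose in 8 of 21 tested members and fell in 1 (median 0.61). PAD4, a lipase-like protein of basal resistance, had 4.84, 4.28 and 4.33 CPM in the SUC2:CO replicates, against 1.82, 1.41 and 2.57 CPM in the Col-0 replicates (log2 fold change 1.20 ± 0.23, adjusted p = 0.00388). DMR6, which hydroxylates salicylic acid, had 11.3, 12 and 12.1 CPM in the SUC2:CO replicates, against 1.74, 5.15 and 5.84 CPM in the Col-0 replicates (log2 fold change 1.47 ± 0.36, adjusted p = 0.0118). The groups were apart for both genes, and without Col-0 replicate 1 the log2 fold change of DMR6 was 1.10. WRKY54 and WRKY70, related transcription factors of this pathway, rose as well. WRKY54 had 14.1, 14.7 and 15 CPM in the SUC2:CO replicates, against 1.7, 4.28 and 2.61 CPM in the Col-0 replicates (log2 fold change 2.36 ± 0.29, adjusted p = 0.000509). WRKY70 had 39.1, 30.5 and 36.2 CPM in the SUC2:CO replicates, against 5.94, 11.1 and 20.3 CPM in the Col-0 replicates (log2 fold change 1.50 ± 0.37, adjusted p = 0.0123). Over the whole WRKY family 10 of 44 rose and 2 fell, and the count of rises was 5 without SUC2:CO replicate 3.

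The largest rises over all genes included several defence genes with the lowest Col-0 value in replicate 1. PCC1, a small membrane protein whose name stands for pathogen and circadian controlled, had 248, 277 and 302 CPM in the SUC2:CO replicates, against 3.56, 31.4 and 21.5 CPM in the Col-0 replicates (log2 fold change 3.87 ± 0.58, adjusted p = 0.00117). LURP1, required for full resistance to a downy mildew in Arabidopsis, had 115, 102 and 128 CPM in the SUC2:CO replicates, against 0.114, 16.4 and 13.6 CPM in the Col-0 replicates (log2 fold change 3.52 ± 0.91, adjusted p = 0.0152). CNGC11, a cyclic nucleotide-gated ion channel, had 31.2, 30.4 and 37.6 CPM in the SUC2:CO replicates, against 0.303, 3.49 and 6.16 CPM in the Col-0 replicates (log2 fold change 3.30 ± 0.68, adjusted p = 0.00531). In each the SUC2:CO samples lay well above all Col-0 samples, and Col-0 replicate 1 lay far below the other Col-0 samples. Without that replicate the log2 fold changes were 3.38, 2.94 and 2.76, with adjusted p-values of 0.000221, 0.00702 and 0.00517. Without Col-0 replicate 3 CNGC11 was at 4.15 (adjusted p = 0.0046).

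AT5G42530, an uncharacterized protein, showed the same spread at a much higher level, with 2312, 2173 and 1861 CPM in the SUC2:CO replicates, against 12.4, 239.8 and 294 CPM in the Col-0 replicates (log2 fold change 3.54 ± 0.91, adjusted p = 0.0148). Its log2 fold change was 2.99 without Col-0 replicate 1. ECS1 had 4144, 4484 and 4439 CPM in the SUC2:CO replicates, against 619.6, 1586 and 1487 CPM in the Col-0 replicates (log2 fold change 1.82 ± 0.30, adjusted p = 0.00177) and was among the largest gains in CPM. AT3G22235, a cysteine-rich transmembrane module protein, had 393, 451 and 477 CPM in the SUC2:CO replicates, against 5.03, 46.9 and 33.4 CPM in the Col-0 replicates (log2 fold change 3.96 ± 0.62, adjusted p = 0.00139). Without Col-0 replicate 1 the log2 fold change was 1.50 for ECS1 and 3.46 for AT3G22235.

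W-box letters (TTGACC or TTGACT, which WRKY factors are known to bind) occurred before 47.2% of the tested receptor-like protein genes and 40.7% of the tested NLR genes. The share was 27.6% for all tested genes. Among the members called, all of them higher, it was 57.9% of receptor-like proteins (11 of 19) and 39.5% of NLR genes (17 of 43). The NLR share was no higher than among all tested NLR genes. Among higher genes outside ribosomal proteins and ribosome biogenesis 28.9% had W-box letters, and among lower genes 24.2%. Whether the letters bear on the rises was not tested.

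**Figure D3:**
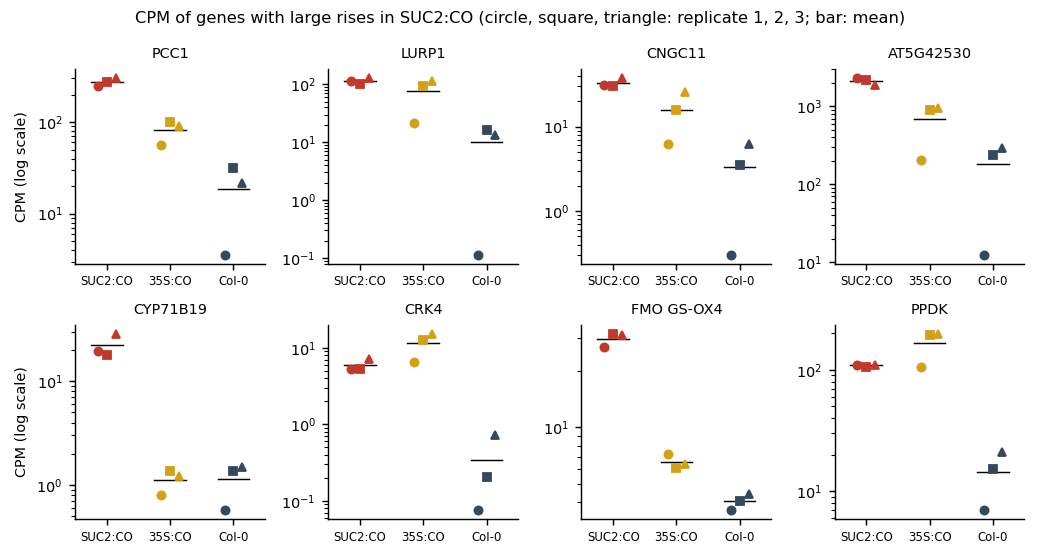
CPM on a log scale of 8 genes that rose in SUC2:CO, in each library of SUC2:CO, 35S:CO and Col-0, with circle, square and triangle for replicates 1, 2 and 3 and a bar for the mean. The SUC2:CO samples lie above all Col-0 samples in every panel, and the Col-0 circle lies lowest for PCC1, LURP1, CNGC11 and AT5G42530.

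Cytochromes P450 were higher in SUC2:CO far more often than lower. These haem enzymes oxidise small molecules in many pathways of specialised metabolism, hormone turnover and detoxification. Of 123 tested members 53 rose and 4 fell (median 0.53), and without Col-0 replicate 1 42 rose. CYP71B19 had 19.8, 18 and 28.9 CPM in the SUC2:CO replicates, against 0.568, 1.37 and 1.5 CPM in the Col-0 replicates (log2 fold change 4.27 ± 0.33, adjusted p = 7.88e-05). CYP72A8 had 78.7, 74.4 and 91.7 CPM in the SUC2:CO replicates, against 7.15, 12.9 and 16.9 CPM in the Col-0 replicates (log2 fold change 2.73 ± 0.38, adjusted p = 0.000883). CYP89A9, which acts on chlorophyll breakdown products, had 15.7, 11.3 and 19.3 CPM in the SUC2:CO replicates, against 1.02, 1.2 and 1.77 CPM in the Col-0 replicates (log2 fold change 3.52 ± 0.32, adjusted p = 0.000184). All SUC2:CO values were several times the highest Col-0 value for these genes. A member that fell, TT7, is a flavonoid hydroxylase and belongs to the excluded anthocyanin genes.

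Genes of glucosinolate synthesis rose far more often than they fell. Glucosinolates are sulfur-containing defence compounds of the cabbage order, built from methionine (aliphatic) or tryptophan (indolic). Of 24 tested aliphatic genes 12 rose and none fell (median 0.64), a count that was 7 without SUC2:CO replicate 1 and 6 without SUC2:CO replicate 2, SUC2:CO replicate 3 or Col-0 replicate 1, and 19 in a fit of the SUC2:CO and Col-0 samples only. FMO GS-OX4, which oxidises the sulfur of the side chain, had 26.7, 31.5 and 30.9 CPM in the SUC2:CO replicates, against 3.63, 4.07 and 4.45 CPM in the Col-0 replicates. Its groups were far apart and tight (log2 fold change 2.87 ± 0.13, adjusted p = 2.16e-06). SOT18, a sulfotransferase of the last step of the core structure, had 139, 158 and 159.9 CPM in the SUC2:CO replicates, against 71.1, 76.5 and 74 CPM in the Col-0 replicates (log2 fold change 1.04 ± 0.17, adjusted p = 0.00168), and it overlaps a neighbouring gene. IMS2, which lengthens the methionine side chain, had 6.99, 9.33 and 10.6 CPM in the SUC2:CO replicates, against 2.72, 4.98 and 2.82 CPM in the Col-0 replicates (log2 fold change 1.36 ± 0.25, adjusted p = 0.00321).

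Indolic glucosinolate and camalexin genes rose in 8 of 17 tested members and fell in 1 (median 0.51). The count of rises was 4 without SUC2:CO replicate 2 or Col-0 replicate 1 and 5 without SUC2:CO replicate 3. CYP91A2 had 11.8, 12 and 14.9 CPM in the SUC2:CO replicates, against 2.99, 2.28 and 3.34 CPM in the Col-0 replicates (log2 fold change 2.16 ± 0.18, adjusted p = 0.000127). GGP1, a gamma-glutamyl peptidase that frees the sulfur-bearing intermediate, had 172, 205 and 196 CPM in the SUC2:CO replicates, against 97.7, 115 and 122 CPM in the Col-0 replicates (log2 fold change 0.77 ± 0.13, adjusted p = 0.00202). Both rose without overlap. UDP-glycosyltransferases, which attach sugars to small molecules, rose in 31 of 86 and fell in 10 (median 0.35). The counts for this family do not leave out anthocyanin genes. AT1G01390 of that family had 60.5, 73.8 and 65.1 CPM in the SUC2:CO replicates, against 16.4, 24.8 and 16.4 CPM in the Col-0 replicates (log2 fold change 1.79 ± 0.18, adjusted p = 0.000267).

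Jasmonate genes moved in both directions, 10 of 34 rising and 5 falling. CORI3, a wound- and jasmonate-inducible transaminase-like protein, had 662, 543 and 562 CPM in the SUC2:CO replicates, against 92.7, 149 and 238 CPM in the Col-0 replicates (log2 fold change 1.88 ± 0.27, adjusted p = 0.000966). JAZ1, a repressor that is itself induced by jasmonate, had 13.5, 8.52 and 8.8 CPM in the SUC2:CO replicates, against 23.3, 13.9 and 27.3 CPM in the Col-0 replicates (log2 fold change -1.07 ± 0.27, adjusted p = 0.0136). The fall of JAZ1 did not pass the threshold without SUC2:CO replicate 2 or without SUC2:CO replicate 3 (adjusted p = 0.0603 and 0.0644).

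Starch metabolism genes rose more often than they fell in SUC2:CO. Leaves store starch by day and break it down to maltose and glucose at night, and samples were taken late in the light period. Of 36 tested starch genes 17 rose and 1 fell (median 0.29). BAM6, a beta-amylase, had 55.4, 54.8 and 69.5 CPM in the SUC2:CO replicates, against 7.08, 15.1 and 18.4 CPM in the Col-0 replicates (log2 fold change 2.15 ± 0.34, adjusted p = 0.00158). AMY2, an alpha-amylase, had 80.3, 93.2 and 97.3 CPM in the SUC2:CO replicates, against 24.8, 35.2 and 23.8 CPM in the Col-0 replicates (log2 fold change 1.69 ± 0.16, adjusted p = 0.000249). SEX1, the glucan, water dikinase that phosphorylates starch before breakdown, had 1043, 968 and 1029 CPM in the SUC2:CO replicates, against 579, 668 and 589 CPM in the Col-0 replicates (log2 fold change 0.73 ± 0.10, adjusted p = 0.000942). The SUC2:CO samples were above all Col-0 samples for each. G-box letters (CACGTG) occurred before 27.8% of the tested starch genes, against 7.42% of all tested genes. Among the 18 starch genes called, the share was 22.2%, so the letters were no more frequent in those that changed.

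Genes known to rise when sugar is short rose in 10 of 21 tested members and fell in none (median 0.37). The count of rises was 6 without SUC2:CO replicate 3. The kelch protein AT1G80440 had 7.18, 7.63 and 10.2 CPM in the SUC2:CO replicates, against 2.42, 1.2 and 2.78 CPM in the Col-0 replicates (log2 fold change 1.95 ± 0.36, adjusted p = 0.00319). DYL1, a dormancy-associated protein, had 38.6, 39 and 47.4 CPM in the SUC2:CO replicates, against 24.8, 25.5 and 25.3 CPM in the Col-0 replicates (log2 fold change 0.72 ± 0.11, adjusted p = 0.00112). Senescence and chlorophyll breakdown genes rose in 7 of 14 and fell in 1. The count of rises was 4 without SUC2:CO replicate 3. SAG29, a sugar transporter of the SWEET family induced in senescence, had 10.5, 9.65 and 8.15 CPM in the SUC2:CO replicates, against 0, 0.0415 and 0.0348 CPM in the Col-0 replicates, and Col-0 lay at or below 3 counts in every library. SUC2:CO was at least 82.8-fold higher, taking 3 counts per library in Col-0 (adjusted p = 0.000404).

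Autophagy genes, whose products carry cell contents to the vacuole for recycling, rose in 7 of 18 tested members and fell in none, in a list made after values were seen (median 0.40). ATG18G had 62.6, 66.5 and 75.9 CPM in the SUC2:CO replicates, against 31, 34.7 and 35.2 CPM in the Col-0 replicates (log2 fold change 1.02 ± 0.14, adjusted p = 0.000674). PPDK, pyruvate orthophosphate dikinase, which makes phosphoenolpyruvate and is known to help move nitrogen out of ageing leaves, was among the largest rises with 111, 105 and 110.4 CPM in the SUC2:CO replicates, against 6.96, 15.2 and 21.2 CPM in the Col-0 replicates (log2 fold change 2.91 ± 0.36, adjusted p = 0.000541). The groups did not overlap, and without Col-0 replicate 1 its log2 fold change was 2.58.

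Nitrogen and amino acid transport genes split by member. Of 34 tested nitrogen genes 16 rose and 3 fell (median 0.38). AMT1;2, an ammonium transporter, had 87, 89.9 and 88.2 CPM in the SUC2:CO replicates, against 39.4, 38 and 22.4 CPM in the Col-0 replicates (log2 fold change 1.41 ± 0.19, adjusted p = 0.000783). NRT2.3, of the high-affinity nitrate transporter family, had 1.74, 1.29 and 1.61 CPM in the SUC2:CO replicates, against 17.4, 16.9 and 6.75 CPM in the Col-0 replicates (log2 fold change -3.14 ± 0.61, adjusted p = 0.00397). AMT1;2 was thus higher and NRT2.3 lower, each without overlap. AAP2, an amino acid permease of the phloem, fell, with 12, 21.2 and 14.7 CPM in the SUC2:CO replicates, against 89.2, 162 and 136 CPM in the Col-0 replicates (log2 fold change -3.02 ± 0.32, adjusted p = 0.00034). UMAMIT and related EamA transporters, many of which export amino acids, rose in 13 of 33 and fell in 1, in a list made after values were seen. UMAMIT11 had 11.3, 11.3 and 12.9 CPM in the SUC2:CO replicates, against 3.25, 3.32 and 2.26 CPM in the Col-0 replicates (log2 fold change 2.01 ± 0.16, adjusted p = 9.96e-05).

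Sulfur, zinc and phosphate genes were mostly higher where they changed. Sulfur uptake and assimilation genes rose in 10 of 23 tested members and fell in none (median 0.44). APS4, annotated in RefSeq as a pseudouridine synthase/archaeosine transglycosylase-like protein and named for ATP sulfurylase, had 77.9, 86.2 and 88.7 CPM in the SUC2:CO replicates, against 19.8, 31.5 and 27.4 CPM in the Col-0 replicates (log2 fold change 1.68 ± 0.20, adjusted p = 0.000512). SULTR3;1, a sulfate transporter, had 11.5, 9.81 and 10.3 CPM in the SUC2:CO replicates, against 3.6, 3.78 and 3.37 CPM in the Col-0 replicates (log2 fold change 1.56 ± 0.12, adjusted p = 8.83e-05). Zinc genes rose in 4 of 7 and fell in none, and HMA2, a zinc-exporting pump, had 18.2, 19.7 and 20.9 CPM in the SUC2:CO replicates, against 7.87, 10.3 and 5.25 CPM in the Col-0 replicates (log2 fold change 1.33 ± 0.21, adjusted p = 0.00142). Phosphate starvation genes rose in 6 of 23 and fell in none. PHO1;H1, a phosphate exporter, had 12.4, 17.3 and 15.9 CPM in the SUC2:CO replicates, against 5.68, 7.56 and 3.97 CPM in the Col-0 replicates (log2 fold change 1.41 ± 0.26, adjusted p = 0.00277), the SUC2:CO samples lying above all Col-0 samples.

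Dehydration and cold genes were mostly higher in SUC2:CO where they changed. Abscisic acid accumulates when water is short and induces protective proteins, several of which also respond to cold. Abscisic acid and dehydration genes rose in 13 of 30 tested members and fell in 1 (median 0.43). The count of rises was 8 without SUC2:CO replicate 2 or Col-0 replicate 1. RD20, a caleosin of lipid droplets, had 18.4, 25.2 and 16.3 CPM in the SUC2:CO replicates, against 5.3, 4.61 and 9.67 CPM in the Col-0 replicates (log2 fold change 1.61 ± 0.26, adjusted p = 0.00152). CYP707A4, which breaks abscisic acid down, and NCED5, which makes a precursor of it, both rose (1.47 ± 0.21 and 1.35 ± 0.28 on the log2 scale, adjusted p = 0.001 and 0.00584).

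Cold response genes rose in 6 of 15 and fell in 1 (median 0.38). COR47, a dehydrin, had 196, 173 and 205 CPM in the SUC2:CO replicates, against 56.6, 71.1 and 59.8 CPM in the Col-0 replicates (log2 fold change 1.61 ± 0.11, adjusted p = 5.1e-05). LTI78 had 67, 43.4 and 54 CPM in the SUC2:CO replicates, against 24.6, 21.5 and 29.3 CPM in the Col-0 replicates (log2 fold change 1.12 ± 0.19, adjusted p = 0.00213). Late embryogenesis abundant proteins, hydrophilic proteins that protect cells from drying, rose in 12 of 41 and fell in 2. LEA3 (AT1G02820) showed one of the largest and most even rises of all genes, with 18.9, 20.8 and 22.2 CPM in the SUC2:CO replicates, against 0.908, 1.7 and 0.939 CPM in the Col-0 replicates (log2 fold change 4.14 ± 0.20, adjusted p = 3.68e-06). Heat shock genes rose in 5 of 20 and fell in 2, but their summed level was lower in SUC2:CO. It was 2434, 1896 and 2140 CPM in the SUC2:CO replicates, against 2860, 2691 and 2627 CPM in the Col-0 replicates. MBF1C, a coactivator of the heat response, rose, with 15.3, 13.5 and 17 CPM in the SUC2:CO replicates, against 3.48, 5.11 and 6.43 CPM in the Col-0 replicates (log2 fold change 1.60 ± 0.21, adjusted p = 0.000616).

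Cytokinin genes fell more often than they rose in SUC2:CO. Cytokinins promote cell division, and type-A response regulators are induced by them and damp the response. Of 19 tested cytokinin genes 6 fell and 2 rose (median -0.34). ARR6, a type-A regulator, had 7.03, 4.36 and 6.16 CPM in the SUC2:CO replicates, against 20.3, 23.5 and 13.7 CPM in the Col-0 replicates (log2 fold change -1.71 ± 0.26, adjusted p = 0.00123). ARR7, another, had 7.49, 4.56 and 5.21 CPM in the SUC2:CO replicates, against 25.2, 17.4 and 14.6 CPM in the Col-0 replicates (log2 fold change -1.73 ± 0.23, adjusted p = 0.000738). UGT76C2, which inactivates cytokinins by glucosylation, had 4.27, 2.79 and 4.06 CPM in the SUC2:CO replicates, against 12.8, 12.8 and 11.1 CPM in the Col-0 replicates (log2 fold change -1.72 ± 0.21, adjusted p = 0.000531). The SUC2:CO samples were below all Col-0 samples for these genes. ABCG14, which exports cytokinins from the root, rose, with 22.5, 24.9 and 23 CPM in the SUC2:CO replicates, against 7.53, 10.1 and 11.3 CPM in the Col-0 replicates (log2 fold change 1.28 ± 0.15, adjusted p = 0.000463).

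Gibberellin genes as a list changed less often than the background, with 2 of 24 tested members higher and 4 lower (25%, against 32.3% of all tested genes) and a median of 0.06. GA3OX1, which makes active gibberellin, fell, with 1.85, 1.7 and 0.191 CPM in the SUC2:CO replicates, against 16.7, 7.27 and 8.31 CPM in the Col-0 replicates (log2 fold change -3.11 ± 0.56, adjusted p = 0.00279). RGL1, a DELLA protein that represses gibberellin responses, rose, with 19.5, 24.3 and 20.4 CPM in the SUC2:CO replicates, against 12.6, 14.7 and 12.9 CPM in the Col-0 replicates (log2 fold change 0.68 ± 0.13, adjusted p = 0.00331). Both differences were without overlap. Among wall-loosening genes, expansins rose in 2 of 18 tested members and fell in 4. Xyloglucan endotransglucosylases rose in 2 of 17 and fell in 3. The changed shares of these lists, 33.3% and 29.4%, were near the 32.3% of all tested genes. Pectin methylesterases and their inhibitors rose in 12 of 37 and fell in 1. EXPA8, an expansin, had 45.5, 75.6 and 72.8 CPM in the SUC2:CO replicates, against 17, 19.2 and 13.4 CPM in the Col-0 replicates and rose (log2 fold change 1.97 ± 0.32, adjusted p = 0.00165). EXPA10, of the same family, had 27.8, 32.2 and 24.7 CPM in the SUC2:CO replicates, against 79.9, 53.8 and 78.4 CPM in the Col-0 replicates and fell (log2 fold change -1.32 ± 0.16, adjusted p = 0.00046). PME2, a pectin methylesterase, rose (log2 fold change 2.18 ± 0.31, adjusted p = 0.000909), and XTH16, a xyloglucan endotransglucosylase, fell (log2 fold change -1.98 ± 0.41, adjusted p = 0.00539).

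Small secreted proteins of the cell surface included large falls on variable Col-0 values. Arabinogalactan proteins, a list made after values were seen, fell in 8 of 30 tested members and rose in none. Their count of falls was 5 without SUC2:CO replicate 2 or SUC2:CO replicate 3 and 4 without Col-0 replicate 1, and 5 by limma-voom. AGP17 had 11.7, 7.23 and 12.2 CPM in the SUC2:CO replicates, against 63, 90.1 and 22.2 CPM in the Col-0 replicates (log2 fold change -2.49 ± 0.51, adjusted p = 0.00542). Lipid-transfer and protease-inhibitor proteins fell in 13 of 42 and rose in 6, a count of falls that was 5 without SUC2:CO replicate 1 or SUC2:CO replicate 2, 4 without SUC2:CO replicate 3, 6 without Col-0 replicate 1 and 7 without Col-0 replicate 3, and 4 by limma-voom. LTP2, a lipid transfer protein of the epidermis, had 0.416, 0.283 and 0.268 CPM in the SUC2:CO replicates, against 12.2, 1.79 and 44.7 CPM in the Col-0 replicates (log2 fold change -5.90 ± 1.06, adjusted p = 0.00266). Col-0 ranged widely for it, limma-voom did not call it (adjusted p = 0.168), and its log2 fold change was -4.42 (adjusted p = 0.00238) without Col-0 replicate 3, the highest sample.

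Phloem genes as a list did not share the fall of SUC2. Of 27 tested phloem genes 7 rose and 1, SUC2, fell (median 0.21), and the count of rises was 4 without SUC2:CO replicate 2 and 11 without Col-0 replicate 2. AAP2, the phloem amino acid permease given above, was not in this list and fell by more than SUC2. KT2/3, a potassium channel of the phloem, had 58.2, 55.2 and 51.6 CPM in the SUC2:CO replicates, against 28.2, 27.2 and 24.4 CPM in the Col-0 replicates (log2 fold change 1.05 ± 0.14, adjusted p = 0.000614). The summed level of the phloem list was 1760.3, 1860.3 and 1813 CPM in SUC2:CO, against 1155, 1609 and 1249 CPM in Col-0.

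Among other large changes, ENT6, a nucleoside transporter, had 21.1, 24.1 and 25.8 CPM in the SUC2:CO replicates, against 1.93, 1.99 and 1.57 CPM in the Col-0 replicates, with tight values in both groups (log2 fold change 3.69 ± 0.15, adjusted p = 1.38e-06). NIP6;1, an aquaporin-like channel that carries boric acid, had 29.98, 29.7 and 35.8 CPM in the SUC2:CO replicates, against 3.25, 4.57 and 6.75 CPM in the Col-0 replicates (log2 fold change 2.71 ± 0.22, adjusted p = 0.000107). The SUC2:CO samples of these genes lay several times above all Col-0 samples. The largest falls included AT2G47880, a glutaredoxin, at 3.44, 1.7 and 1.61 CPM in the SUC2:CO replicates, against 26.6, 35.1 and 35.5 CPM in the Col-0 replicates (log2 fold change -3.84 ± 0.26, adjusted p = 2.82e-05). RL3, a small MYB-type protein of the RADIALIS-like family, had 1.44, 1.94 and 2.07 CPM in the SUC2:CO replicates, against 18.8, 37.7 and 23.5 CPM in the Col-0 replicates (log2 fold change -3.87 ± 0.31, adjusted p = 9.96e-05). AT4G15660, a thioredoxin superfamily protein, had 3.29, 2.18 and 4.25 CPM in the SUC2:CO replicates, against 17.9, 21.7 and 19.7 CPM in the Col-0 replicates (log2 fold change -2.60 ± 0.25, adjusted p = 0.000266). The groups lay far apart in each.

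**Figure D4:**
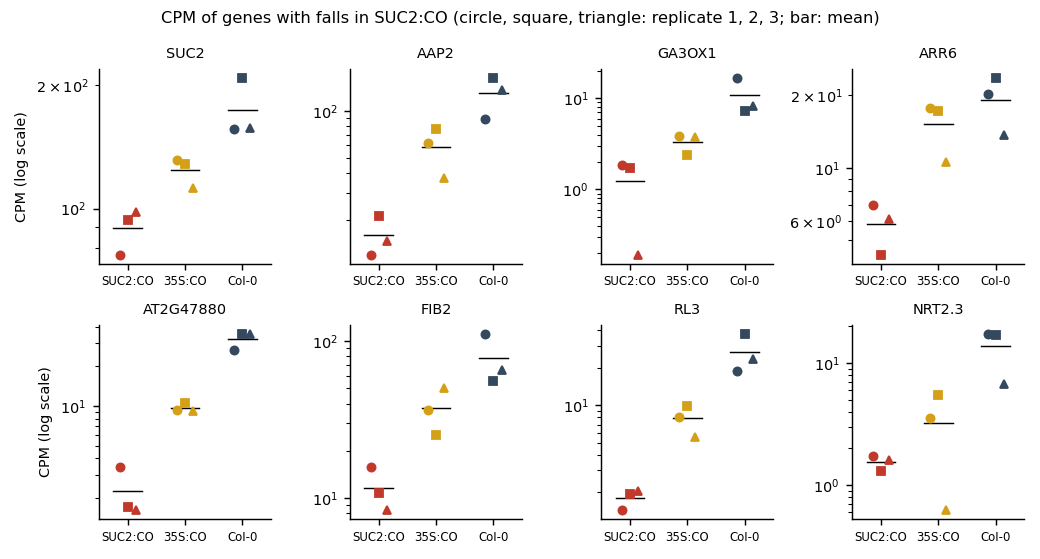
CPM on a log scale of 8 genes that fell in SUC2:CO, in each library of SUC2:CO, 35S:CO and Col-0, with circle, square and triangle for replicates 1, 2 and 3 and a bar for the mean. In every panel the SUC2:CO samples lie below all Col-0 samples.

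The largest gains in CPM among the genes named were those of LHB1B2 and ECS1, given above, and enzymes were among the 10 largest as well. GLDP1, of the photorespiratory glycine decarboxylase, had 6849, 6699 and 6962 CPM in the SUC2:CO replicates, against 4526, 5241 and 4110.4 CPM in the Col-0 replicates (log2 fold change 0.56 ± 0.13, adjusted p = 0.00875). CAT3, a catalase, had 1979, 2537 and 2613 CPM in the SUC2:CO replicates, against 1125, 1109 and 1265 CPM in the Col-0 replicates (log2 fold change 1.03 ± 0.14, adjusted p = 0.000674). THIC, of thiamine synthesis, rose (log2 fold change 0.53 ± 0.12, adjusted p = 0.0095), and HOG1, which recycles S-adenosylhomocysteine, fell (log2 fold change -0.74 ± 0.13, adjusted p = 0.00201). The groups were apart for all of these.

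Several large families of transcription factors, proteins that switch genes on or off, held changes in both directions, at shares near or below the background. Their counts include any clock, flowering and anthocyanin genes of these families, and 20 of 21 tested anthocyanin genes were lower. Changed genes made up 34.1% of bHLH, 24.1% of MYB, 23.6% of NAC and 22.1% of AP2/ERF factors, against 32.3% of all tested genes. Of the tested genes, 17 of 82 bHLH factors rose and 11 fell (median 0.07). Among MYB factors 11 of 79 tested genes rose and 8 fell (median -0.02), the count of rises being 6 without SUC2:CO replicate 2 or SUC2:CO replicate 3 and 7 without Col-0 replicate 1. Among NAC factors 8 of 55 tested genes rose and 5 fell (median 0.10), with a count of rises of 5 without SUC2:CO replicate 3. Among AP2/ERF factors 4 of 68 tested genes rose and 11 fell (median -0.11), with a count of falls of 7 without SUC2:CO replicate 3.

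Markers of cell types were read to check the labelled tissue. Antenna genes, which mark green leaf cells, summed to 44384, 59250.4 and 52742 CPM in SUC2:CO and 44999.8, 51231 and 38532 CPM in Col-0. Only 3 of 23 root markers passed the filter, with 0 called by edgeR, 1 at an unadjusted p under 0.05, 1 by DESeq2 and 0 by limma-voom. The 23 root markers summed to 4.42, 4.24 and 4.36 CPM in SUC2:CO and 4.39, 3.36 and 7.2 CPM in Col-0. Root markers were thus near absent in every library of both groups, and how far roots are represented in the samples is not known. Stomatal lineage and guard cell genes fell in 4 of 16 tested members and rose in 1, with sums of 114, 129 and 122 CPM in SUC2:CO and 166, 156 and 159 CPM in Col-0. That count of falls was 2 without SUC2:CO replicate 1, SUC2:CO replicate 2, Col-0 replicate 1 or Col-0 replicate 3 and 1 without SUC2:CO replicate 3. Trichome genes fell in 2 of 6, at sums of 5.97, 4.68 and 3.67 CPM in SUC2:CO and 14.7, 3.74 and 8.87 CPM in Col-0, and the count was 0 without SUC2:CO replicate 1, SUC2:CO replicate 2 or Col-0 replicate 1 and 1 without SUC2:CO replicate 3. Secondary wall and xylem genes had 1 call of 16. The part of these shifts in the results above was not tested.

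**Figure D5:**
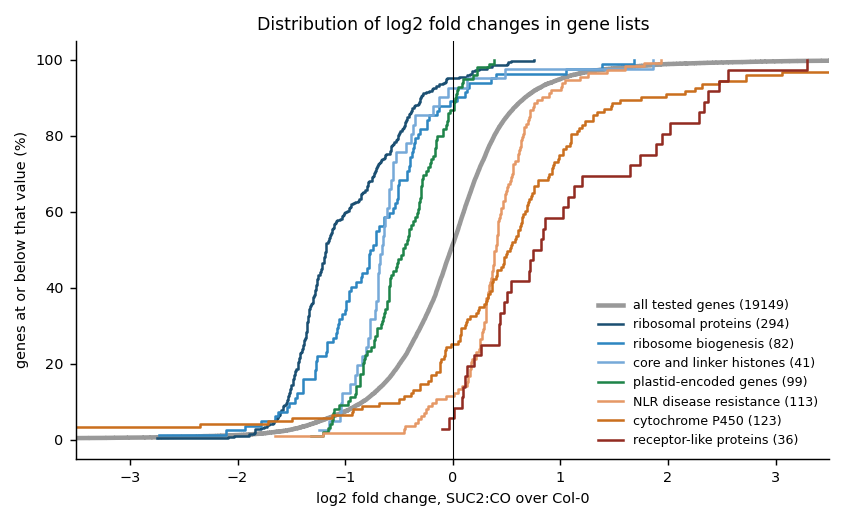
Cumulative share of tested genes at or below each log2 fold change of SUC2:CO over Col-0, shown from -3.5 to 3.5, for all 19149 tested genes and 7 lists with their tested genes in parentheses. The ribosomal protein curve lies farthest left (median -1.18) and the receptor-like protein curve farthest right (median 0.78).

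SUC2:CO was also set against 35S:CO for the same lists. Both comparisons share the SUC2:CO samples, so they are not independent. Of all tested genes, 3595 differed between SUC2:CO and 35S:CO (18.8%), 1820 being higher (9.5%) and 1775 lower (9.27%) in SUC2:CO. Ribosomal protein genes were lower than in 35S:CO for 181 of 294 and higher for 1 (median log2 fold change -0.67), and the sum in 35S:CO was 40844, 31823 and 40822 CPM. NLR genes were higher than in 35S:CO for 33 and lower for 2 of 113, and aliphatic glucosinolate genes higher for 9 and lower for 0 of 24. Receptor-like proteins were higher than in 35S:CO for only 5 and lower for 1 of 36 (median 0.22). Cysteine-rich receptor kinases were higher for 6 and lower for 0 of 28 (median 0.22).

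Other lists differed in direction between the references. Salicylic acid genes were higher than in 35S:CO for 2 and lower for 8 of 21, with a median of -0.54, against 8 higher and 1 lower than in Col-0. Abscisic acid genes were higher than in 35S:CO for 3 and lower for 7 of 30. PCC1 had 55.8, 99.97 and 91.5 CPM in the 35S:CO replicates, and its log2 fold change of SUC2:CO over 35S:CO was 1.74 ± 0.53 (adjusted p = 0.0446). FMO GS-OX4 had 7.22, 6.09 and 6.38 CPM in 35S:CO (log2 fold change 2.18 ± 0.12, adjusted p = 2.92e-06). AAP2 had 62, 76.5 and 37 CPM in 35S:CO (log2 fold change -1.88 ± 0.31, adjusted p = 0.00277). PCC1 and FMO GS-OX4 were thus higher in SUC2:CO than in either other genotype, and AAP2 was lower.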

How the data were processed

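Gene counts came from 9 strand-specific seedling RNA libraries, and the authors deposited them as raw counts per gene without normalization. Per the submitters' processing notes, FastQC, STAR, featureCounts, limma and the TAIR10 build were used, with no versions or settings, and the use of strand in counting is not given in the sources used here. Overlapping genes, antisense genes and near-identical copies are therefore uncertain. Of 32833 genes, 32548 matched RefSeq's TAIR10.1 annotation and 285 did not. Names, coordinates and sequences come from that annotation.

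Counts were analysed with edgeR 4.0.16 in R 4.3.3. filterByExpr kept 19149 genes, libraries were scaled by TMM, and a quasi-likelihood model with a term per genotype was fitted to all 9 samples. Tests were two-sided, with Benjamini-Hochberg adjustment over all tested genes and a threshold of 0.05. CPM are counts over TMM-scaled library sizes. The ± on a log2 fold change is its standard error. Lower bounds used a floor of 3 counts per library, which covers counting error only.

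Lists came from locus identifiers or annotated product names and are described by counts and medians, with no test of a list. The members, lists and naming rule were chosen with earlier results of these data known, and 18 lists were added after values were seen. Within a list, up to 4 called genes without overlap between groups, averaging 1 or more on the log2 CPM scale, with the largest fold changes, could be named. Over all genes outside the excluded lists the 10 largest rises and falls (averaging 3 or more on that scale) and the 10 largest gains and losses in CPM could be named, with CO and SUC2. Genes from added lists followed the first rule, and AT1G53560, AT3G14595 and AT3G01170 were added with their values known.

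Simulated counts with known changes were run through edgeR, DESeq2 and limma-voom before use. The share of changed genes recovered was 97%, 96% and 96.5%, and 5.37%, 7.25% and 5.39% of the calls were false. The simulation gave all genes the same spread, changed far fewer genes and held no outlying library. It therefore does not give the error rates for these data. Alternatives were DESeq2 1.42.0, limma-voom (limma 3.58.1), RLE scaling, library totals, other filters, the compared samples only, a replicate block and leaving out each sample.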

Additional observations from a re-analysis of the deposited data

How the results depend on the processing

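The count of genes changed between SUC2:CO and Col-0 was 6176 in the reported fit. It was 5892 with no filter on low counts, 6150 with a mean count of at least 10, 6176 with RLE scaling, 5445 with library totals, 6525 with DESeq2, 6010 with limma-voom and 5859 with the 6 compared samples alone. Leaving out each replicate in turn gave 3572 to 6615 changed genes, 1709 to 3056 higher and 1863 to 3559 lower. The share of changed genes that were higher was 48% in the reported fit and 42.8% with library totals. Same-numbered samples had correlated deviations from their group means of 0.180, 0.114 and -0.033, so the numbers were not taken to pair the samples, and the replicate block gave 6902 changed genes.

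Counts of higher genes with each replicate left out were 23 to 41 for NLR disease resistance, 7 to 13 for cysteine-rich receptor-like kinases, 5 to 10 for WRKY factors, 6 to 9 for aliphatic glucosinolates, 4 to 8 for indolic glucosinolates and camalexin, 6 to 10 for sugar starvation, 4 to 6 for senescence and chlorophyll breakdown, 8 to 16 for abscisic acid and dehydration, 15 to 24 for leucine-rich repeat kinases and 4 to 11 for phloem. Counts of lower genes were 5 to 13 for small nucleolar RNAs, 22 to 56 for pentatricopeptide repeat, 4 to 11 for DNA replication, 2 to 27 for cell division, 2 to 10 for chlorophyll synthesis, 4 to 11 for arabinogalactan proteins, 4 to 17 for lipid-transfer and protease-inhibitor proteins, 1 to 5 for stomatal lineage and guard cell and 0 to 2 for trichome. With limma-voom the lower counts were 6 for cell division, 5 for arabinogalactan proteins, 4 for lipid-transfer and protease-inhibitor proteins and 0 for trichome. With no filter, 20 lipid-transfer and protease-inhibitor genes were lower. With the 6 samples alone, 7 of these, 8 stomatal lineage and guard cell genes and 1 trichome gene were lower, and 19 aliphatic glucosinolate genes were higher. The causes were not tested. The naming rule gave 334 genes with a test, more than the text names. Of these, 0 reversed in the 14 alternatives wherever they had a test, which was 331 with the 6 samples alone and 334 in each other alternative, and at most 65 lost their call, without SUC2:CO replicate 3. Depth limited genes near the floor of 3 counts per library, and 3 samples per genotype limit the precision of every fold change.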
